A study of Mus musculus with 8 samples.

Results

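De novo lipogenesis (DNL) is the route by which hepatocytes make fatty acids from carbohydrate carbon. The genes described here were 7 enzymes of that route (Acly, Me1, Acaca, Acacb, Fasn, Elovl6 and Scd1) and 3 of its regulators (Srebf1, Mlxipl and Thrsp). They were chosen by gene symbol, as the rows of the deposited gene counts that carry these names. All 10 were among the 17810 genes listed, and all 10 passed the filter on low counts that left 12395 genes for testing. The samples were bulk RNA from the livers of 4 WT and 4 HKO mice. HKO mice carried a loxP-flanked miR-33 gene and Cre recombinase under the albumin promoter, which is used to delete miR-33 in hepatocytes. Whether this Cre also acts in cholangiocytes was not tested here. WT mice were their littermates, and whether these carried loxP alleles or Cre is not given in the sources used here. Both groups were 8 weeks old when chow was replaced by a high-fat diet without added choline (CD-HFD), were fed it for 3 months, and were 5 months old at collection, the stage of simple steatosis (MASL). Neither a chow group nor another time point is compared, so every value below is a difference between genotypes on CD-HFD.

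In DNL, citrate exported from mitochondria is cleaved to acetyl-CoA by ATP citrate lyase (Acly), which acetyl-CoA carboxylases (Acaca and Acacb) turn into malonyl-CoA and fatty acid synthase (Fasn) builds into palmitate with NADPH, part of which comes from malic enzyme (Me1). Elovl6 then lengthens palmitate to stearate, and Scd1 places the double bond that gives oleate and palmitoleate. Srebf1 encodes SREBP-1, which insulin activates, Mlxipl encodes ChREBP, which glucose metabolites activate, and Thrsp encodes a small nuclear and cytosolic protein that promotes lipogenesis. In the mouse, miR-33 lies within an intron of Srebf2, the gene of the cholesterol-regulating SREBP-2, and it represses transcripts such as Abca1, a cholesterol exporter.

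Depth was 12174339 to 18735785 estimated counts a liver, and levels are given as CPM, the count relative to the size of the library, with library sizes scaled by the trimmed mean of M values (TMM). The third HKO liver stood apart from the others of its genotype: the chi-square of its counts against theirs was 114 to 128 per degree of freedom, against 21.2 to 33.9 among the other HKO livers and 19.6 to 43.8 among the WT livers. The first WT liver had the lowest depth, and it was the highest of the 4 WT livers in 17 of 17 genes of the SREBP-2 cholesterol pathway. The HKO libraries were numbered 55 to 58 and the WT libraries 59 to 62, so library order and genotype cannot be told apart. The level of miR-33 itself was not analysed here. Abca1 was higher in each HKO liver (375 to 481 CPM) than in each WT liver (279 to 321 CPM), and its log2 fold change was 0.47 (SE 0.09, adjusted p = 0.0175, edgeR; up to 0.0927 over the alternatives, with the call lost without WT replicate 1 or WT replicate 2). Differences called significant throughout had an adjusted p under 0.05 in edgeR's quasi-likelihood test, adjusted over all 12395 genes by the Benjamini-Hochberg method.

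Because the mice differ in miR-33, the 3'UTR of each lipogenic transcript was searched for seed matches of miR-33-5p. The form CAATGCA pairs with bases 2 to 8 of the miRNA. The form AATGCAA pairs with bases 2 to 7 and ends in an unpaired A opposite base 1. The mature miRNA is shown with bases 2 to 8 in capitals. Below it are the matches in the lipogenic transcripts and, for comparison, 1 of the 3 matches in Abca1, of which 2 overlap, each with the match in capitals. Coordinates are GRCm38.
miR-33-5p, chr15:82198127-82198147, plus strand: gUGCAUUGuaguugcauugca
Acly, chr11:100476843-100476865, minus strand: aggaagggAATGCAAgttttaag
Acaca, chr11:84401592-84401614, plus strand: cttcagtcCAATGCActcttctc
Srebf1, chr11:60199140-60199162, minus strand: tttttctgAATGCAAtgactgtt
Abca1, chr4:53033793-53033816, minus strand: acactattCAATGCAAtgcacttc
Of the 10 lipogenic transcripts, 3 held a match of 7 bases (CAATGCA or AATGCAA), against 17.5% of the 11620 tested genes with an annotated 3'UTR. The match in Acaca was CAATGCA, and those in Acly and Srebf1 were AATGCAA. None of the 10 held the full match of 8 bases (CAATGCAA), which 2.34% of those genes held and Abca1 held at 2 positions. Fasn, Scd1, Elovl6, Me1, Acacb, Mlxipl and Thrsp held neither form in the 3'UTR searched. The 3 genes with a match had log2 fold changes of -0.12 (Acly), -0.36 (Acaca) and 0.10 (Srebf1), and none of these passed the test. A match of letters does not show that the miRNA binds there.

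None of the 10 lipogenic genes was called, where 5.03% of all tested genes were (624 of 12395, of which 206 were higher and 418 lower in HKO livers, a split that total count scaling moved to 119 and 621). A single gene, Me1, had an unadjusted p under 0.05, against 19.8% of all tested genes. Me1 was also the only member whose 4 HKO livers did not overlap the 4 WT livers, against 12.5% of all tested genes in either direction and 7.19% with HKO lower. The log2 fold change was below 0 for 8 of the 10 genes and for 7 of the 7 enzymes, against 48.4% of all tested genes. The median over the 10 was -0.57, beside 0.01 over all tested genes. These signs and medians are a description, since the genes share the same livers and most moved together from liver to liver.

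**Figure D1:**
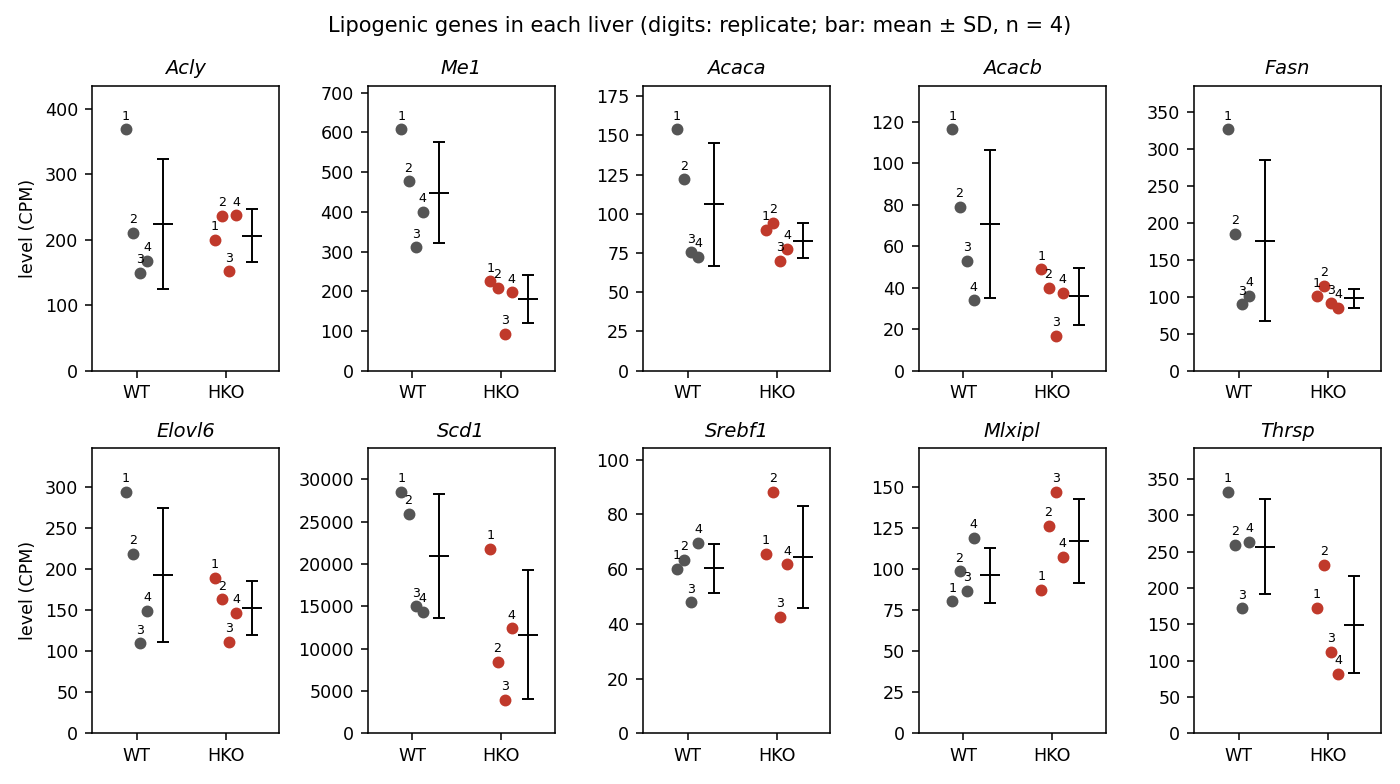
Level in CPM (linear axes from 0) of each lipogenic gene in 4 WT livers (grey) and 4 HKO livers (red), with the replicate number above each point and the mean ± SD beside the points (n = 4). The first WT liver is the highest of the 8 in 8 of the 10 panels, and Me1 is the only panel in which the groups do not overlap.

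Me1, the cytosolic malic enzyme that yields NADPH for fatty acid synthesis, had the largest difference. Its levels were 608, 477, 311 and 399 CPM in the WT livers and 225, 208, 93.0 and 197 CPM in the HKO livers. Every HKO liver lay below every WT liver, and the third HKO liver was the lowest. The mean came to 449 ± 126 CPM for WT against 181 ± 59.7 CPM for HKO (SD, n = 4), a ratio of 0.403. The log2 fold change was -1.31 (SE 0.32, 95% interval -2.06 to -0.56), with an unadjusted p of 0.00411 and an adjusted p of 0.0657, which did not pass the threshold. DESeq2 (adjusted p = 0.00349) and limma-voom (adjusted p = 0.0235) both called Me1 lower, where they called 7.18% and 4.86% of the genes they tested. Without the third HKO liver the difference was smaller in size, -1.09, and passed in edgeR (adjusted p = 0.0277). Over all alternatives the adjusted p of Me1 ran from 0.0022 to 0.161. The call of Me1 therefore turned on the tool and on which livers entered.

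Acly, which supplies cytosolic acetyl-CoA, had no clear direction. Its levels were 369, 210, 149 and 168 CPM in the WT livers and 200, 236, 152 and 237 CPM in the HKO livers. The first WT liver stood above the other 7, and 3 of the 4 HKO livers lay above the median of the WT livers. The estimate was -0.12 on the log2 scale (95% interval -0.84 to 0.60, adjusted p = 0.882). It became 0.23 without the first WT liver and 0.00 without the third HKO liver. The interval therefore spanned both directions.

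The acetyl-CoA carboxylases make malonyl-CoA in different places: Acaca encodes the cytosolic enzyme that feeds synthesis, and Acacb the mitochondrial one whose product restrains fatty acid import into mitochondria. Acaca measured 154, 122, 75.5 and 72.6 CPM in the WT livers and 89.9, 94.1, 69.9 and 77.5 CPM in the HKO livers. The HKO values fell within or just under the lower part of the WT range, and 1 of them lay below every WT liver. Its log2 fold change was -0.36 (95% interval -0.94 to 0.23, adjusted p = 0.503), and -0.12 without the first WT liver. Acacb measured 116, 79.2, 52.9 and 33.9 CPM in the WT livers and 48.9, 40.1, 16.8 and 37.5 CPM in the HKO livers. Again 1 HKO liver, the third, lay below all WT livers, and the fourth WT liver was lower than 3 of the HKO livers. The log2 fold change of Acacb was -0.98 (95% interval -2.11 to 0.15, adjusted p = 0.321), and -0.63 without the first WT liver.

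Fasn encodes the multifunctional enzyme that assembles palmitate. It measured 327, 186, 89.9 and 102 CPM in the WT livers and 101, 115, 91.4 and 84.7 CPM in the HKO livers. The HKO livers lay close together beside the 2 lowest WT livers, and WT livers 1 and 2 stood above all the rest. The mean came to 176 ± 109 CPM for WT against 97.9 ± 13.0 CPM for HKO (SD, n = 4). The WT livers spanned 3.64-fold and the HKO livers 1.36-fold. The log2 fold change was -0.85 (95% interval -1.87 to 0.17, adjusted p = 0.341), and it was -0.36 without the first WT liver.

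Elovl6, which extends palmitate, measured 294, 219, 110 and 149 CPM in the WT livers and 190, 163, 111 and 146 CPM in the HKO livers. The HKO livers lay wholly inside the WT range. The genotypes differed by -0.34 on the log2 scale (95% interval -1.09 to 0.42, adjusted p = 0.633), and -0.06 without the first WT liver. Scd1, which desaturates stearate and palmitate, ranked 2 of all genes by mean CPM. It measured 28495, 25886, 14968 and 14306 CPM in the WT livers and 21776, 8443, 3925 and 12372 CPM in the HKO livers. Of the HKO livers, 3 lay below every WT liver, and the first lay among the WT livers. The mean came to 20914 ± 7331 CPM for WT against 11629 ± 7594 CPM for HKO (SD, n = 4), 2.09% and 1.16% of the scaled counts. The difference was -0.85 on the log2 scale (95% interval -2.08 to 0.39, adjusted p = 0.437), and it ran from -1.34 without the first HKO liver to -0.56 without the third.

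**Figure D2:**
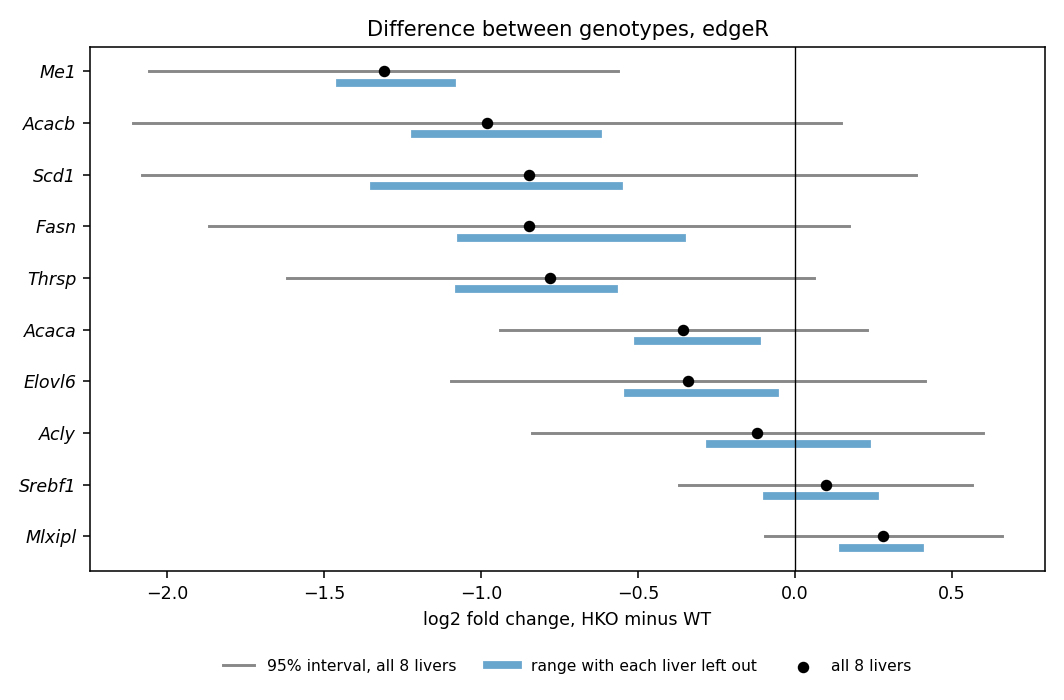
Log2 fold change of each lipogenic gene, HKO minus WT, from edgeR (points), with the 95% interval over all 8 livers (grey lines) and the range of the estimate over the fits without 1 of the livers (blue bars). The interval of Me1, -2.06 to -0.56, is the only 1 of the 10 that does not hold 0, and the blue bars of Acly and Srebf1 cross 0.

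The regulators did not share a direction. Srebf1 measured 60.2, 63.5, 47.9 and 69.5 CPM in the WT livers and 65.5, 88.2, 42.7 and 61.7 CPM in the HKO livers. Its highest and its lowest values were both in HKO livers, replicates 2 and 3. Its log2 fold change was 0.10 (95% interval -0.37 to 0.57, adjusted p = 0.852), and -0.09 without the second HKO liver. The count of Srebf1 sums the SREBP-1a and SREBP-1c transcripts and says nothing of the cleavage that activates the protein. Mlxipl measured 80.4, 98.6, 86.9 and 119 CPM in the WT livers and 87.3, 126, 147 and 107 CPM in the HKO livers. Of the HKO livers, 2 lay above every WT liver and the other two lay among them. Its log2 fold change was 0.28 (95% interval -0.10 to 0.66, adjusted p = 0.404), and 0.15 without the third HKO liver. Thrsp measured 332, 259, 172 and 264 CPM in the WT livers and 172, 232, 112 and 82.1 CPM in the HKO livers. HKO livers 3 and 4 were the lowest of the 8, and the first HKO liver was level with the lowest WT liver. The log2 fold change of Thrsp was -0.78 (95% interval -1.62 to 0.06, adjusted p = 0.291).

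Lipogenic genes varied more between livers of the same genotype than most genes did. The SD of log2 CPM within a genotype had a median of 0.503 over the 10 genes, beside 0.198 over all tested genes. All 10 lay above the median of all tested genes, and 9 lay above its 75th percentile. Scd1 was the most variable, at the 97.3rd percentile, and Mlxipl the least, at the 69th percentile. In Fasn and Acly the WT livers were the more variable group, and in Scd1 and Thrsp the HKO livers were.

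The spread was shared across most of the genes rather than scattered. The first WT liver was the highest of the 8 livers in 8 of the 10 genes, all but Srebf1 and Mlxipl. The second WT liver was among the highest 2 livers in 6 genes. The third HKO liver was the lowest of the 8 in 5 genes and the lowest of the 4 HKO livers in 7, but it was the highest of the 8 for Mlxipl. With each gene centred on its own mean, the mean over the 10 was 0.78 in the first WT liver, 0.44 in the second and -0.74 in the third HKO liver on the log2 scale, and it lay between -0.28 and 0.00 in the other 5. Without both the first WT and the third HKO liver, an alternative chosen after seeing the data, the log2 fold changes were 0.35 for Acly, 0.06 for Elovl6, -0.05 for Acaca, -0.33 for Fasn, -0.37 for Scd1, -0.39 for Acacb and -0.51 for Thrsp. Under it Me1 was the only 1 of the 10 called (-0.91, adjusted p = 0.0157). Mice were fasted for some hours before collection per the study's methods, and the part of fasting or of the hour of collection in this spread was not tested.

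**Figure D3:**
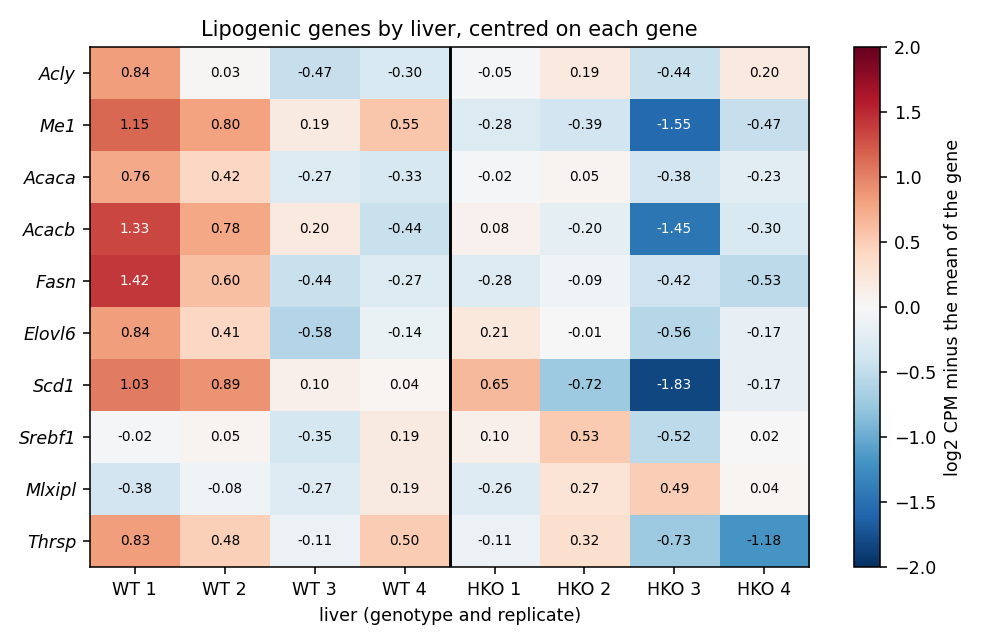
Log2 CPM of each lipogenic gene in each liver minus that gene's mean over the 8 livers (red above, blue below, values printed), with WT livers left of the black line and HKO livers right of it. The first WT liver is red in 8 rows, up to 1.42 for Fasn, and the third HKO liver is blue in 9 rows, down to -1.83 for Scd1.

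Ratios of a pair of genes within a liver do not depend on the scaling of libraries, and 6 were compared by an exact two-sided permutation test over the 70 allocations of 8 livers, whose smallest p is 0.0286. Thrsp against Mid1ip1, which encodes a related protein that activates acetyl-CoA carboxylase, was the only ratio whose groups did not overlap. It was 9.57, 10.5, 7.32 and 7.92 in the WT livers and 5.36, 4.58, 3.36 and 2.05 in the HKO livers. The log2 ratio was 3.13 ± 0.24 in WT and 1.85 ± 0.61 in HKO (SD, n = 4), a difference of -1.28 (exact p = 0.0286, 0.171 after Benjamini-Hochberg adjustment over 6 ratios). Its parts moved in opposite directions: Mid1ip1 differed by 0.43 on the log2 scale (adjusted p = 0.204). Thus the ratio reached the smallest p possible and did not pass the adjustment.

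Acaca against Acacb was 1.32, 1.54, 1.43 and 2.14 in the WT livers and 1.84, 2.35, 4.14 and 2.07 in the HKO livers. All HKO livers lay above 3 of the WT livers and the third HKO liver was far above the rest, a log2 difference of 0.64 (exact p = 0.0857, adjusted 0.171). Scd1 against Elovl6 differed by -0.77 (exact p = 0.114, adjusted 0.171), with the lowest ratio, 35.3, in the third HKO liver and WT ratios of 95.8 to 136. Scd1 against Fasn differed by -0.38 (exact p = 0.571, adjusted 0.686), and the HKO livers, at 42.9 to 217, enclosed the WT range of 87.1 to 166. Srebf1 against Mlxipl differed by -0.21 (exact p = 0.743), with 3 HKO livers at 0.576 to 0.751 beside the WT ratios of 0.551 to 0.749 and the third at 0.291. Srebf1 against Srebf2 differed by 0.42 (exact p = 0.114, adjusted 0.171). None of the 6 ratios passed the adjustment.

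**Figure D4:**
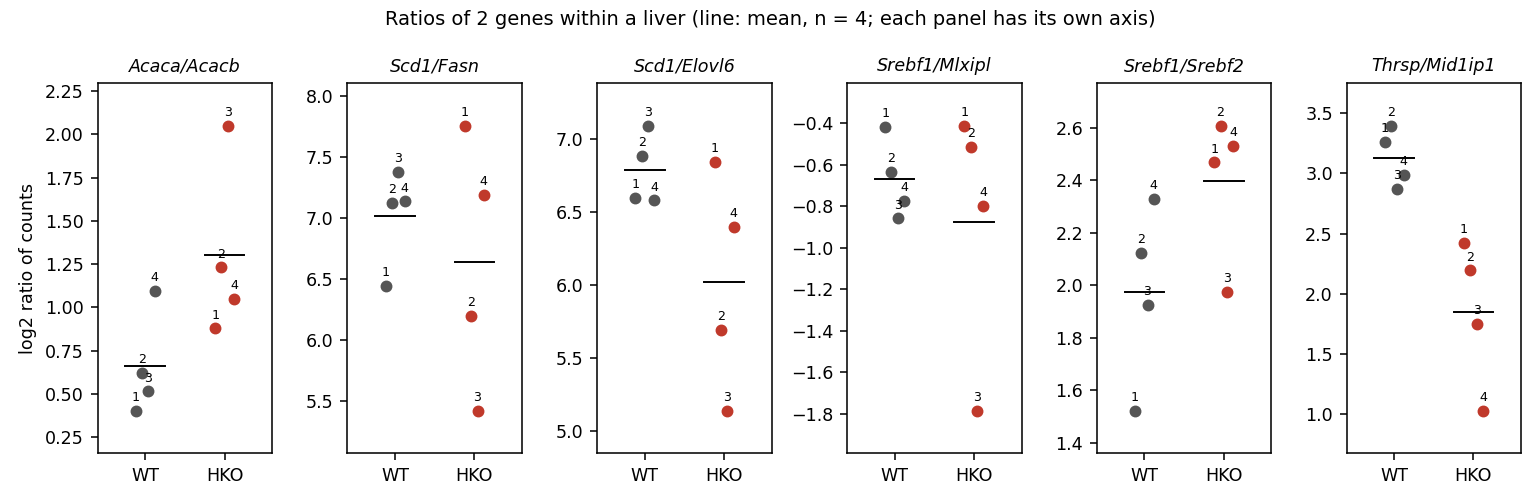
Log2 ratio of the counts of 2 genes within each liver for 6 gene pairs, in 4 WT livers (grey) and 4 HKO livers (red), with replicate numbers and the mean as a line; each panel has its own axis. The groups separate only for Thrsp/Mid1ip1, where the means are 3.13 in WT and 1.85 in HKO.

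Levels of different genes were set side by side per kilobase of annotated exon. Scd1 was the most abundant of the 10, at 4275 ± 1499 CPM per kilobase in WT and 2377 ± 1552 in HKO (SD, n = 4). Thrsp (117 ± 30.0 in WT) and Me1 (117 ± 32.7) came next and did not differ beyond their spread. Acly (42.4 ± 18.9), Elovl6 (30.0 ± 12.6), Mlxipl (17.4 ± 3.05) and Fasn (16.1 ± 9.99 CPM per kilobase) followed. Me1 lay above Acly in every WT liver and in every HKO liver except the third (24.2 against 28.7 CPM per kilobase). From Acly down, the range of each gene over the WT livers overlapped that of the next. Within each liver of either genotype, however, Acly lay above Elovl6. Srebf1 (10.7 ± 1.62), Acacb (7.33 ± 3.71) and Acaca (6.21 ± 2.29) were the lowest in WT, again overlapping. In HKO livers the order was the same except that Srebf1 (11.5 ± 3.32) stood above Fasn (8.94 ± 1.19) and Acaca (4.85 ± 0.65) above Acacb (3.72 ± 1.41 CPM per kilobase), pairs that overlapped in both genotypes. With the length of the longest transcript, Acaca stood above Acacb in both genotypes. By that length Mlxipl stood above Elovl6 in HKO but below it in WT.

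The genes around the route were read from lists named for their place in it. Called genes in these lists were all lower in HKO livers, where 3.37% of all tested genes were called lower and 1.66% higher. Of 10 genes for acetyl-CoA and NADPH supply, 2 were lower and none higher, with a median log2 fold change of -0.26. Tkt, transketolase of the pentose phosphate pathway, fell by 0.80 on the log2 scale (SE 0.14, adjusted p = 0.00999), from 78.6 ± 14.8 to 45.2 ± 5.93 CPM, a call lost without both the first WT and the third HKO liver (adjusted p = 0.0606). Taldo1, the transaldolase of the same pathway, fell by 0.46 (SE 0.10, adjusted p = 0.0213), a call lost without WT replicate 1, WT replicate 2 or HKO replicate 4 (highest adjusted p = 0.0952 over the alternatives). The most abundant members of the list, Mdh1 (0.06, adjusted p = 0.772) and Idh1 (-0.22, adjusted p = 0.234), did not pass the test.

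Among 14 genes that control SREBP-1 and ChREBP, 1 was lower, with a median of 0.08 on the log2 scale. It was Insig2, which retains the SREBP escort complex in the endoplasmic reticulum, at 329 ± 37.2 CPM in WT and 213 ± 39.2 CPM in HKO (log2 fold change -0.63, SE 0.13, adjusted p = 0.0233). Its call was lost without WT replicate 1, WT replicate 2 or HKO replicate 4, with adjusted p up to 0.0895. Rxra, the partner of the liver X receptors that induce Srebf1, differed by 0.21 on the log2 scale (adjusted p = 0.193). Srebf2, the host gene of miR-33, measured 12.6 to 20.9 CPM in WT and 10.6 to 14.4 CPM in HKO (log2 fold change -0.37, adjusted p = 0.243).

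Of 16 tested genes among 18 other targets of SREBP-1c and ChREBP, 2 were lower, with a median log2 fold change of -0.25. Gpam, which begins glycerolipid synthesis, fell by 1.00 on the log2 scale (SE 0.23, adjusted p = 0.0486), from 656, 368, 311 and 318 CPM in the WT livers to 217, 207, 201 and 205 CPM in the HKO livers. The HKO livers were close together and all below the WT livers, of which the first was far above the others. The call of Gpam was lost without WT replicate 2 or without any single HKO liver, with adjusted p up to 0.126, and held without the first WT liver. It was also lost with RLE scaling (adjusted p = 0.0503) and with no expression filter (adjusted p = 0.0864). Fgf21, a hormone made by the liver, fell by 2.30 (SE 0.47, adjusted p = 0.0184), at low levels of 1.54 to 3.07 CPM in WT and 0.154 to 0.877 CPM in HKO, a call lost without WT replicate 2 (adjusted p up to 0.0800 over the alternatives). The limit of detection, taken as 3 counts, was 0.149 to 0.255 CPM depending on the liver. For Fgf21, HKO liver 2 (0.154 CPM) lay below its limit of 0.232 CPM, and HKO liver 3 (0.169 CPM) lay at its limit. The size of the fall in Fgf21 is therefore uncertain. Elovl5 (-1.24, adjusted p = 0.0735), among the most abundant of the list, did not pass, although its HKO livers (402 to 1008 CPM) all lay below its WT livers (1270 to 2372 CPM). Elovl5, which elongates polyunsaturated fatty acids, was called lower by DESeq2 (adjusted p = 0.00443), by limma-voom (adjusted p = 0.0313) and without the third HKO liver (adjusted p = 0.049), and its adjusted p was at most 0.186 over the alternatives.

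Of 15 other desaturases and elongation enzymes, 1 was lower, with a median of -0.22 on the log2 scale. Hsd17b12, the ketoacyl reductase that acts after each elongase, fell by 0.63 (SE 0.09, adjusted p = 0.00369, at most 0.0227 over the 18 alternatives), from 357 ± 34.2 to 230 ± 18.8 CPM (SD, n = 4). DESeq2 called 1 gene of this list lower and 1 higher. Cyb5a (0.03, adjusted p = 0.934), which passes electrons to desaturases, and Elovl2 (0.07, adjusted p = 0.886) were the most abundant and did not pass. Among 9 regulators of acetyl-CoA carboxylase, most of them AMPK subunits, none was called by edgeR or by DESeq2. In edgeR 2 of them had an unadjusted p under 0.05, 1 higher and 1 lower in HKO livers, against 19.8% of all tested genes. Prkaa2, a catalytic subunit of AMPK, differed by -0.15 on the log2 scale (adjusted p = 0.306), and Mlycd, which removes malonyl-CoA, -0.06 (adjusted p = 0.816). Of 17 genes of the SREBP-2 cholesterol pathway, 17 had a log2 fold change below 0 (median -0.67) and 1 was called. Sc5d (-0.39, adjusted p = 0.479), among the most abundant of these, did not pass.

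The genes outside the set whose level by liver was nearest to the mean of the 10 were found by the mean absolute difference of centred log2 CPM over the 8 livers. The nearest were Zfp418 (0.0950), Pdk1 (0.109), Acat2 (0.117) and Pstpip2 (0.122), where the median tested gene differed by 0.380. Pdk1 encodes a kinase that inhibits pyruvate dehydrogenase, and Acat2 the cytosolic thiolase that opens sterol synthesis. Their log2 fold changes were -0.35, -0.43, -0.67 and -0.45, and none passed the test. Each of the 10 was set against the mean of the other members. By that measure Acaca (0.127) and Elovl6 (0.153) lay nearest, and Mlxipl (0.558) and Scd1 (0.501) farthest. Mlxipl, Scd1 and Me1 (0.465) thus lay farther than the 0.380 of the median tested gene, which was set against all 10. The measure counts the size of the swings between livers as well as their direction.

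Promoter sequence of 9 of the 10 genes, 13 promoters in all, was searched on both strands for 4 motifs. The window ran from 250 bases before to 50 bases after the start (RefSeq, GRCm38.p6). No promoter of Scd1 was among the sequences used, and Srebf1, Me1 and Mlxipl had more than 1 window each. The CCAAT box, bound by NF-Y, a partner of SREBPs, was found in 8 of the 13 windows, against 37.4% of 32851 windows of all genes. The 8 are not 8 separate genes, since Srebf1 entered more than once. The box of Me1 lay in a window away from the gene's listed start, and that of Acly lay after the start. The full sterol regulatory element was found in none of the 13 windows (0.234% of all windows). Its core, TCACNCCA, which lies within it, was found in 1 of the 13 (4.36% of all windows) and the E-box CACGTG in 1 (7.15%), in different Mlxipl promoters. Those of Fasn and Thrsp are shown because they hold more than 1 CCAAT box, in capitals.
Fasn, chr11:120824498-120824797, minus strand: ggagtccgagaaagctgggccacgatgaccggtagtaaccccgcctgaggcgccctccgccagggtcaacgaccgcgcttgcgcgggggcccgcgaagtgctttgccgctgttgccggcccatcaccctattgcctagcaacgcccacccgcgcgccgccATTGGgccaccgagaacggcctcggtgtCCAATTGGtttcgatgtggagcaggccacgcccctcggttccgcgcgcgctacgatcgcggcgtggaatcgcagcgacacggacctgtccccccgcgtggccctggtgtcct
Thrsp, chr7:97417501-97417800, minus strand: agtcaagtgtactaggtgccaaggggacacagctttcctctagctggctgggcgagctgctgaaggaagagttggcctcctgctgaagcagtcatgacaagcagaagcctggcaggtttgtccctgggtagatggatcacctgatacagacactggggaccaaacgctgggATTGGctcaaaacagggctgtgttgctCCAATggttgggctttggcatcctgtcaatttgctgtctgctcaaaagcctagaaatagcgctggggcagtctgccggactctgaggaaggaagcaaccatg
Fasn held 3 boxes, of which 2 overlap on opposite strands in the run CCAATTGG, and Thrsp held 2. Both genes had log2 fold changes near -0.8 that did not pass the test, and absence of a motif says only that its letters are not in the window searched.

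The livers expressed hepatocyte markers at high levels (Alb 47064 to 98815 CPM). In bulk RNA, fewer cells of a type and less RNA per cell cannot be told apart. Of 6 hepatocyte markers, 3 were called higher in HKO livers and none was called lower, where 1.66% and 3.37% of all tested genes were. Those called were Cps1 (log2 fold change 1.26), Tat (0.87) and Hnf4a (0.36). Alb (-0.03, adjusted p = 0.967), Ttr (-0.08, adjusted p = 0.803) and Apoa1 (0.49, adjusted p = 0.155) were not called. The summed level of the 6, mostly Alb, ran from 73636 to 108141 CPM in WT livers and from 62595 to 116754 CPM in HKO livers. Of 5 stellate cell markers, 2 were called lower, Col1a1 and Col3a1. Lrat (log2 fold change -0.18, adjusted p = 0.619), Dcn (-0.07, adjusted p = 0.802) and Des (0.18, adjusted p = 0.742) were not called. The sums of the 5, mostly Dcn, were 319 to 450 CPM in WT and 248 to 311 CPM in HKO. None of 5 macrophage (67.8 to 169 CPM in WT, 55.4 to 163 in HKO), 4 endothelial (42.7 to 146 and 80.5 to 169) or 4 cholangiocyte markers (6.17 to 8.94 and 6.75 to 44.6) was called. Only 2 of the cholangiocyte markers passed the filter and were tested. Their highest sum was in HKO liver 2, with Krt19 at 16.9 CPM and Epcam at 16.5 CPM. The other livers had at most 1.07 CPM of Krt19 and 1.02 CPM of Epcam. Of 5 adipocyte markers, which matter here because adipocytes also express lipogenic genes, 4 were listed, with sums of 0.895 to 7.05 CPM in WT and 0.0851 to 5.06 CPM in HKO. Lep and Retn were at 0 in all WT livers, and Adipoq did not exceed 0.0698 CPM there. In HKO livers 1 and 2 Lep was at 2.09 and 0.386 CPM, Adipoq at 1.42 and 0.232 CPM and Retn at 0.270 and 0.695 CPM, whereas in HKO livers 3 and 4 Lep and Retn were at 0. Cfd ran the other way, at 0.895 to 6.98 CPM in WT and 0 to 1.28 CPM in HKO. The part of these cell types in the lipogenic values was not tested.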

How the data were processed

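Liver RNA of 4 WT and 4 HKO mice was sequenced. The deposited values are estimated counts per gene and liver: the authors aligned reads with STAR and divided ambiguous reads among genes with Partek's E/M method (versions and build not given in the sources used here). The labels name both rRNA depletion and a small RNA kit, so the library type is uncertain. Of the values, 87.7% were whole within 0.01; Acly and Srebf1 were fractional in 7 livers, Me1 in 6 and Mlxipl in 2. Coordinates matched GRCm38: 82.5% of 17789 symbols shared a start or end with RefSeq, the listed stop often lying 1 base beyond.

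Counts were rounded and tested with edgeR 4.0.16 (TMM, filterByExpr, minimum count 10, robust quasi-likelihood, genotype alone). The SE is the absolute log2 fold change over the root of F, and intervals use the t quantile at 95%. Ratios used raw counts plus 0.5. DESeq2 1.42.0, limma 3.58.1 with voom, other scalings, filters, a replicate block and each liver left out were alternatives. Scripts were tested on simulated data. 3'UTRs came from GENCODE vM21, promoters and miR-33 from RefSeq. Each replicate is 1 liver, and p-values set the difference between genotypes against the spread between livers, whatever its source. In edgeR the spread of each gene was moderated with that of the other genes. The limit of 3 counts covers counting error only.

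The members and lists were chosen with earlier results of these data known. Genes named were the 10 members, those of the 6 ratios, per list the called genes (at most 4) and the 2 with the highest mean CPM, the 5 nearest profiles, and Abca1; some genes this rule names are not reported here. The marker genes Alb, Ttr, Apoa1, Cps1, Tat, Hnf4a, Col1a1, Col3a1, Lrat, Dcn, Des, Krt19, Epcam, Lep, Retn, Adipoq and Cfd were named after their values were seen. No test for RNA-Seq was stated in the methods read.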

Additional observations from a re-analysis of the deposited data

Results flagged for a closer look

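Dixon's test was applied to 88 groups of 4 livers (each genotype for the members, ratios, list means and named genes), and 4 held a liver far from the other three, where chance gives about 4.4. That number is a rough guide only, since the groups share the same livers. Pdk1, flagged below, had also been named for its likeness to the lipogenic genes by liver. In the third HKO liver the mean centred log2 CPM of the other desaturases and elongation enzymes was -0.45, against -0.02 to 0.02 in the other HKO livers, and Pdk1 was 77.1 CPM against 122 to 129 CPM. In the first WT liver Gpam was 656 CPM and Sc5d 939 CPM, where the other three WT livers measured 311 to 368 CPM and 432 to 467 CPM. None of the 10 lipogenic genes was flagged in either genotype.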

How the results depend on the processing

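Over 180 pairs of a lipogenic gene and an alternative, 169 kept the direction and the side of the threshold, 6 passed it and 5 reversed. All 6 that passed were Me1: total count scaling (-1.38, adjusted p = 0.0483), DESeq2 (-1.31), limma-voom (-1.35), the replicate block (-1.35, adjusted p = 0.0022), without HKO replicate 3 (-1.09) and without WT replicate 1 and HKO replicate 3 (-0.91), so each gave 1 member called in place of 0. Leaving out each liver in turn gave 0 to 1. The reversals were Acly without WT replicate 1 (0.23), without HKO replicate 3 (0.0049) and without both (0.35), Elovl6 without both (0.064) and Srebf1 without HKO replicate 2 (-0.089). With each liver left out, Acly ran from -0.27 to 0.23, Elovl6 from -0.53 to -0.06 and Srebf1 from -0.089 to 0.26. Without WT replicate 1 and HKO replicate 3, Tkt, Taldo1, Fgf21 and Abca1 lost their call. Among 395 pairs of another named gene and an alternative, 359 kept direction and side, 21 lost the call, 5 gained it and 10 reversed, none of the reversed being called: total count scaling gave -0.052 for Cyb5a, -0.011 for Elovl2 and -0.019 for Mdh1, leaving out both livers gave 0.0011 for Sc5d, and with livers left out Cyb5a ran from -0.053 to 0.12, Elovl2 from -0.116 to 0.35, Mlycd from -0.103 to 0.022 and Sc5d from -0.51 to 0.0011. The cause was not tested. Over all genes, DESeq2 called 975 in place of 624, and leaving out both livers, chosen after seeing the data, 228. Leaving out each liver gave 212 (without WT replicate 2) to 598 genes, with 272 without WT replicate 1 and 364 without HKO replicate 4. DESeq2 also called 4 of the other SREBP-1c and ChREBP targets in place of 2, 2 desaturation and elongation genes (1 higher, 1 lower) in place of 1 lower, and 3 cholesterol genes in place of 1.

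Thrsp/Mid1ip1 ran from -1.47 to -1.005 with each liver left out (exact p 0.0286 to 0.0571), Scd1/Elovl6 from -1.04 to -0.48, Scd1/Fasn from -0.75 to 0.028 and Srebf1/Mlxipl from -0.36 to 0.096, the last 2 reversing without HKO replicate 3. The replicate block gave Thrsp/Mid1ip1 an exact p of 0.125 (-1.28), the smallest that 4 pairs allow. Replicate numbers did not pair the livers: the correlations of same-numbered deviations were -0.06, 0.01, -0.08 and -0.15. The block moved the calls over all genes to 456, called Elovl5 (adjusted p = 0.025) and lost Insig2 (adjusted p = 0.0658). Longest transcripts changed the rank by level per length of 2 members in each genotype. With 8 bases required, 0 members held a seed match in place of 3.

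The members had 299 to 370829 counts a liver, so the spread between livers sets the intervals: for Fasn, Scd1, Acacb and Thrsp the 95% intervals reach from a fall of more than 1.6 on the log2 scale to above 0, so a large fall and none are both within them.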
